A study of Mus musculus with 12 samples.

Results

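Collagens, the glycoproteins and proteoglycans packed around them, the enzymes that cross-link them and the marker genes of the cells that secrete them were followed in mouse renal cortex by RNA sequencing. The members are 45 genes given as a list by name. The deposited transcript table held 44 of them, out of 13465 genes in all, and Vcan was not analysed here. Of the 44, 43 passed the filter for testing, which asked for at least 1 FPKM (fragments on a transcript, scaled to its length and to the size of the library) in at least 3 of the 12 libraries. Mfap5, a microfibril glycoprotein, did not pass and lay between 0.0372 and 1.27 FPKM. Fbn1, Lox and Postn were below 1 FPKM in all 6 sham libraries and so passed only through the injured ones. Col12a1, Fbln2 and Lum reached 1 FPKM in fewer than 3 sham libraries and so also needed injured ones to pass.

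The 4 groups were CKO IRI, WT IRI, CKO sham and WT sham, with 3 libraries each. CKO libraries are labelled as from mice with Gpx3 deleted in renal tubular epithelial cells, and WT libraries as wild type. Gpx3 encodes a secreted glutathione peroxidase that the proximal tubule supplies to the plasma. IRI kidneys had 30 min of bilateral renal ischemia and 48 h of reperfusion, and sham kidneys are labelled as sham-treated. The promoter that drove the deletion, the strain, the sex and the age are not given in the sources used here. Nothing states that each library came from a separate animal, so the p-values reflect only library-to-library spread, which may be technical.

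In a healthy kidney, fibrillar collagens of the interstitium are sparse and are made by fibroblasts and pericytes, while type IV collagen, laminins, nidogens and perlecan build the basement membranes under tubules, capillaries and podocytes. After injury, fibroblasts and pericytes can become myofibroblasts, which carry smooth muscle actin and secrete fibrillar collagen. The new matrix is stiffened by lysyl oxidases and remodelled through matricellular proteins such as periostin, tenascin C and SPARC. In bulk RNA from cortex, more cells of a type and more RNA per cell cannot be told apart.

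Summed values lay between 391002 and 422328 FPKM per library, with an unknown read depth. The median within-group SD per gene (log2) was 0.23 in CKO IRI, 0.27 in WT IRI, 0.17 in CKO sham and 0.10 in WT sham. Kidney markers were abundant in every library, and none of 10 joint and cartilage markers could be analysed here, although the labels' extraction text speaks of joint capsule. As a check of the labels, Gpx3 measured 3723, 3025 and 2779 FPKM in CKO IRI, 2788, 3568 and 1075 FPKM in WT IRI, 2501, 3037 and 3299 FPKM in CKO sham and 5664, 4476 and 5371 FPKM in WT sham. It averaged -0.81 (log2) in CKO sham relative to WT sham, with no overlap between the libraries. The exact two-sided permutation p was 0.1, the smallest that 3 against 3 allows, and the limma adjusted p was 0.135. After injury the 2 genotypes overlapped in Gpx3, with a difference of 0.52, an exact permutation p of 0.5 and a limma adjusted p of 0.577, so Gpx3 did not separate the injured libraries by genotype. CKO and WT are used throughout for libraries as labelled, in the changes after injury too. Without WT IRI 49 that difference was -0.001.

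After injury Col1a1, Col3a1 and Col18a1 rose in both genotypes, also with any 1 library left out. The lysyl oxidase gene Lox did so too, but it passed the filter only through injured libraries. Col1a2, Postn and Vim also rose in both, but their CKO calls were lost in 1, 3 and 4 of the 12 omissions of 1 library. In CKO IRI against CKO sham, 12 of the 43 tested members rose and none fell (limma, Benjamini-Hochberg adjusted p under 0.05), where 6.6% of all genes tested rose and 2.02% fell. In WT IRI against WT sham, 27 rose and none fell, where 23.5% of all genes rose and 11.8% fell. All 12 members that rose in CKO kidneys were among the 27. The median change over the tested members was 0.72 (log2) in CKO and 1.12 in WT kidneys, against 0.08 and 0.12 over all genes tested. Fbn1, Lox, Postn, Col12a1, Fbln2 and Lum passed the filter only with injured libraries counted, which bears on these counts and medians. Changes are differences of log2(FPKM + 1), so those of genes near or under 1 FPKM come out too small. Every injured library lay above every sham library for 25 members in CKO kidneys (21.4% of all genes did) and for 29 in WT kidneys (35.2%), and below for Col5a2 and Hspg2 in each (10.1% and 19.5% of all genes).

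Scaling changed the split of calls. As deposited, 823 genes rose and 252 fell in CKO kidneys, and 2936 rose and 1472 fell in WT kidneys. After quantile normalization the counts were 625 higher and 390 lower in CKO and 2088 higher and 2011 lower in WT kidneys. With trimmed-mean scaling they were 677 and 354 in CKO and 2305 and 1910 in WT kidneys. Members higher then numbered 11 in CKO kidneys under either scaling, with none lower, and in WT kidneys 22 with 2 lower (quantile) and 23 with 1 lower (trimmed mean).

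The CKO count rested on single libraries more than the WT count did. It was 4 without CKO IRI 7, 7 without CKO IRI 29, 5 without CKO sham 2, 5 without CKO sham 3 and 19 without CKO sham 1. The WT count of rises lay between 19 and 29 over the 12 omissions of 1 library. Col1a1, Col3a1, Col18a1 and Lox were the 4 members called in CKO kidneys under every omission, of which Lox passed the filter only through injured libraries. In WT kidneys 18 of the 27 were.

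**Figure D1:**
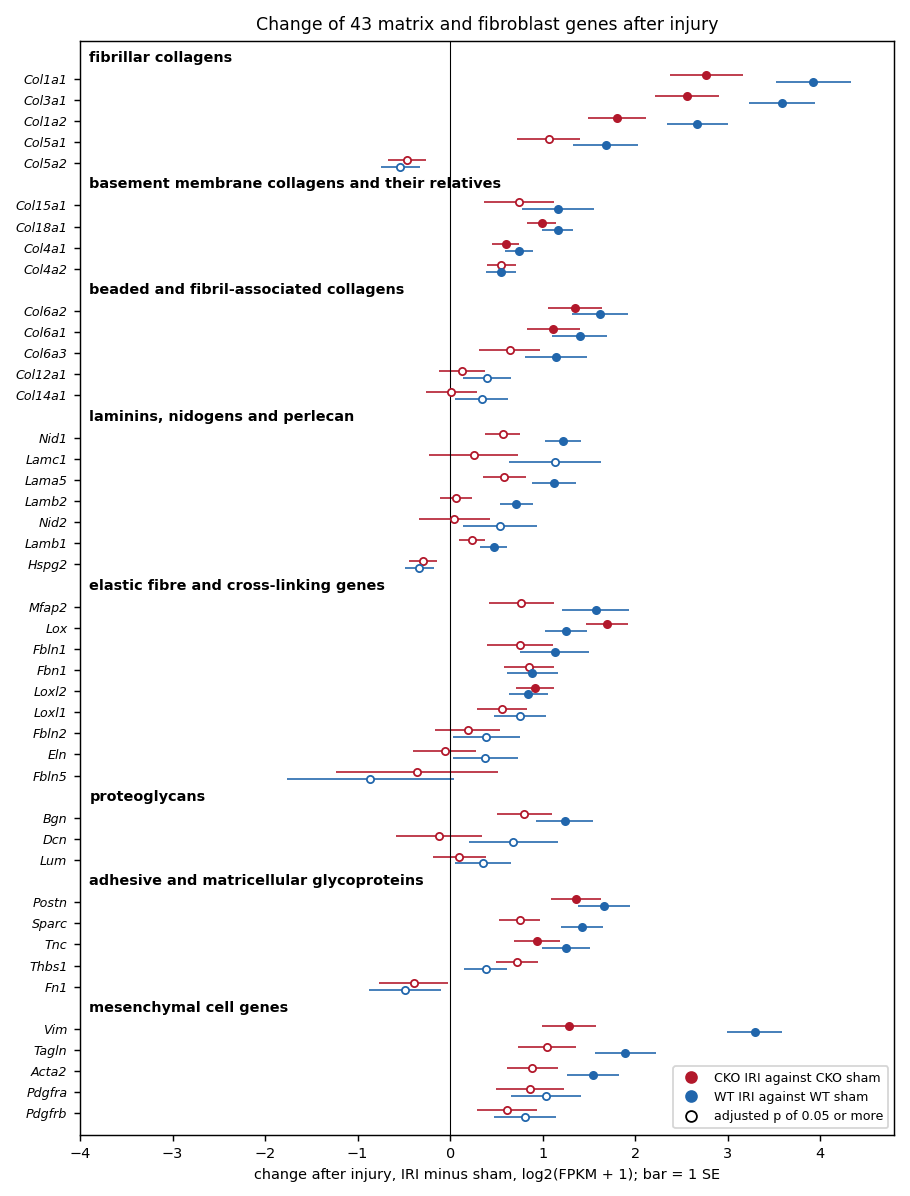
Change of each tested member after injury (x axis, IRI minus sham, log2(FPKM + 1); point, difference of group means of 3 libraries; bar, 1 SE), grouped by role, with CKO IRI against CKO sham in red above WT IRI against WT sham in blue. Filled points passed an adjusted p of 0.05, which 12 red and 27 blue points did, and Col5a2, Hspg2, Fbln5 and Fn1 lie left of 0 in both genotypes.

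Fibrillar collagens rose in 3 of 5 in CKO and 4 of 5 in WT kidneys, and Col1a1 and Col3a1 had the 2 largest changes of the tested members in each genotype on the log2(FPKM + 1) scale. By ratio of means Postn, at 12.4 in CKO and 20.8 in WT kidneys, was above Col1a1 (8.15) and Col3a1 (6.73) in CKO and above Col3a1 (16.8) but not Col1a1 (22.4) in WT kidneys. Lox (6.94) was also above Col3a1 in CKO kidneys. Postn and Lox passed the filter only through injured libraries, which favours high ratios. The Postn ratios also rest on sham means near the floor, 0.16 FPKM in CKO and 0.15 FPKM in WT sham. Type I collagen is the main fibre of scar and bone and is built from Col1a1 and Col1a2 chains. Col1a1 measured 40.6, 27.9 and 66.1 FPKM in CKO IRI 7, 15 and 29, against 6.25, 3.63 and 6.64 FPKM in CKO sham 1, 2 and 3. It measured 121, 29.1 and 88.3 FPKM in WT IRI 13, 24 and 49, against 3.08, 3.91 and 3.67 FPKM in WT sham 1, 2 and 3. Every injured library lay above every sham library of its genotype, and WT IRI 24 was at the level of the lowest CKO IRI library. The limma change was 2.77 (SE 0.39, adjusted p = 0.00176) in CKO and 3.93 (SE 0.41, adjusted p = 0.000109) in WT kidneys.

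Col3a1, which encodes the type III collagen of pliable connective tissue, measured 37.9, 34.5 and 59.0 FPKM in CKO IRI, against 7.99, 5.03 and 6.50 FPKM in CKO sham. In WT IRI it measured 92.7, 26.2 and 97.8 FPKM, against 3.72, 4.53 and 4.61 FPKM in WT sham. The order of the libraries was close to that of Col1a1, with WT IRI 24 lowest of the 6 injured ones. The limma changes were 2.56 (adjusted p = 0.00128) in CKO and 3.58 (adjusted p = 8.5e-05) in WT kidneys. Col1a2 measured 35.8, 36.9 and 52.7 FPKM in CKO IRI, against 13, 8.64 and 12 FPKM in CKO sham. It measured 93.4, 25.3 and 79.6 FPKM in WT IRI, against 7.71, 8.36 and 8.51 FPKM in WT sham. Its groups did not overlap in either genotype, and it rose by 1.81 (limma adjusted p = 0.00629) in CKO and by 2.67 (adjusted p = 0.000302) in WT kidneys, although the CKO call was lost without CKO IRI 7 (adjusted p = 0.0577).

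The 2 chains of type I collagen stood in another ratio after injury. The ratio of Col1a1 to Col1a2, both in FPKM and thus per length, was 1.14, 0.756 and 1.25 in CKO IRI, against 0.480, 0.420 and 0.556 in CKO sham. In WT IRI it was 1.30, 1.15 and 1.11, against 0.400, 0.468 and 0.431 in WT sham. All 6 injured libraries lay above all 6 sham libraries, and WT IRI 24, which was low for each chain, was not low for their ratio.

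Type V collagen, which starts and limits the width of type I fibrils, split by chain. Col5a1 measured 3.17, 2.73 and 6.81 FPKM in CKO IRI, against 1.64, 1.04 and 1.47 FPKM in CKO sham, a limma change of 1.06 that did not pass (adjusted p = 0.0765) except without WT IRI 24 (0.0267), without CKO sham 1 (0.0497) or with 1 array weight per library (0.0220). In WT kidneys Col5a1 rose by 1.68 (limma adjusted p = 0.00459), to a mean of 6.79 FPKM in WT IRI, against 1.14 FPKM in WT sham. Its partner chain Col5a2 had the opposite sign. Col5a2 measured 6.39, 8.35 and 8.48 FPKM in CKO IRI, against 10.3, 11.7 and 11 FPKM in CKO sham. It measured 11.3, 5.11 and 12.2 FPKM in WT IRI, against 13.6, 12.7 and 14.2 FPKM in WT sham. Every injured library lay below every sham library of its genotype, but the limma changes of -0.47 (adjusted p = 0.187) and -0.54 (adjusted p = 0.0686) did not pass. In WT kidneys Col5a2 fell past the threshold without WT IRI 49 (-0.74, adjusted p = 0.0366), after quantile normalization (-0.68, adjusted p = 0.0331) and with trimmed-mean scaling (-0.64, adjusted p = 0.0365). With 1 array weight per library it was called lower in both genotypes (-0.65 in CKO, adjusted p = 0.0164, and -0.87 in WT, adjusted p = 0.00692). Col3a1 and Col5a2 are neighbours on chromosome 1 that are transcribed towards each other with their ends 24.6 kb apart (GRCm38), and each had 1 transcript holding 98.5% or more of its value.

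**Figure D2:**
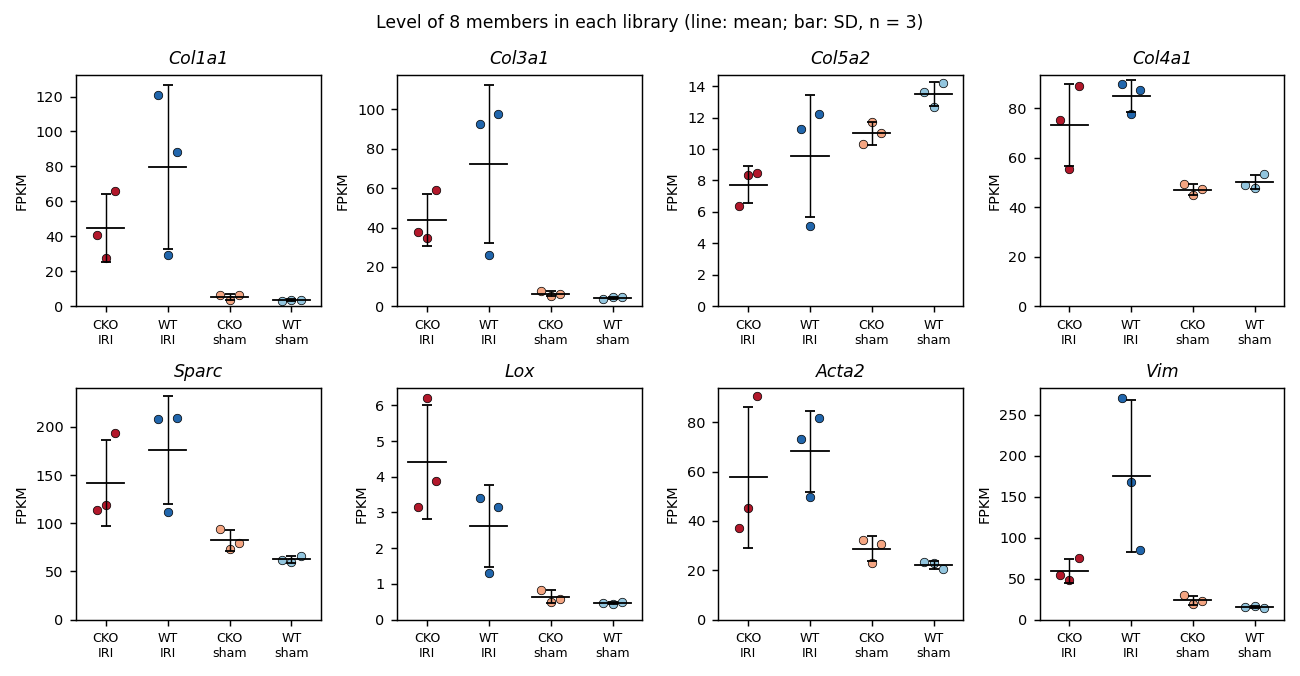
Level of 8 members in each library (y axis, FPKM, starting at 0 in each panel; x axis, the 4 groups; points, libraries; line, mean; bar, SD, n = 3). Injured libraries lie above the sham libraries of their genotype in 7 panels and below them in that of Col5a2, and in WT IRI the points of Vim range from 85.1 to 270.

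Basement membrane collagens rose in 2 of 4 in CKO and 4 of 4 in WT kidneys, with median changes of 0.67 and 0.95, against 1.81 and 2.67 for the fibrillar genes. Col4a1 and Col4a2 encode the network-forming chains found in nearly every basement membrane, and they lie head to head on chromosome 8, with annotated genes that overlap by 22 bases. Col4a1 measured 75.3, 55.7 and 88.9 FPKM in CKO IRI, against 49.3, 44.9 and 47.5 FPKM in CKO sham. It measured 89.8, 77.6 and 87.4 FPKM in WT IRI, against 49.2, 48.0 and 53.5 FPKM in WT sham. The groups did not overlap, and the limma changes were 0.60 (adjusted p = 0.0308) in CKO and 0.75 (adjusted p = 0.00412) in WT kidneys. The CKO call was lost without CKO IRI 7, CKO IRI 29, CKO sham 2 or CKO sham 3 (adjusted p up to 0.176). Col4a2 had a change of 0.55 in each genotype, which did not pass in CKO (limma adjusted p = 0.0502) and passed in WT kidneys (adjusted p = 0.0220). The CKO change passed without CKO IRI 15, WT IRI 24 or CKO sham 1 (adjusted p from 0.0204 to 0.0480), without a filter (0.0499), with transcripts weighted by length (0.0497, a setting chosen after seeing the data) and with 1 array weight per library (0.00520). Its WT call was lost without any 1 of the 3 WT IRI libraries and with trimmed-mean scaling (adjusted p up to 0.0858). The ratio of Col4a1 to Col4a2 lay between 1.41 and 1.84 in all 12 libraries.

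Col18a1, whose protein carries the endostatin fragment and sits in vascular and epithelial basement membranes, had the highest mean FPKM of the 14 collagen members in both injured groups. It measured 86.6, 65.9 and 108 FPKM in CKO IRI, against 40.8, 43.3 and 43.1 FPKM in CKO sham. In WT IRI it measured 133, 121 and 96.4 FPKM, against 51.3, 48.0 and 54.7 FPKM in WT sham. It rose by 0.99 (limma adjusted p = 0.00397) in CKO and by 1.16 (adjusted p = 0.000711) in WT kidneys, and WT IRI 24 was not low for it. Col15a1, a related multiplexin of the zone under basement membranes, measured 10.2, 11.2 and 14.5 FPKM in CKO IRI, against 8.88, 4.85 and 6.82 FPKM in CKO sham. It measured 16.5, 6.02 and 21.2 FPKM in WT IRI, against 4.09, 4.90 and 7.15 FPKM in WT sham. WT IRI and WT sham overlapped for Col15a1, and its rise of 1.16 in WT kidneys (limma adjusted p = 0.0395) was lost when any 1 of the 3 CKO IRI libraries was left out, and also without WT IRI 13 or 49 and without WT sham 1 or 2, with adjusted p up to 0.185 over the settings tried. Quantile normalization, trimmed-mean scaling, array weights or only the groups compared also removed the Col15a1 call.

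Of the 5 beaded and fibril-associated collagens, 2 rose in CKO and 3 in WT kidneys, all chains of type VI collagen, which forms beaded filaments around cells. Col6a1 measured 11.2, 13.5 and 14 FPKM in CKO IRI, against 6.83, 4.07 and 5.60 FPKM in CKO sham. It measured 16.1, 6.46 and 24 FPKM in WT IRI, against 4.40, 4.72 and 4.61 FPKM in WT sham. Injured libraries lay above sham libraries in both genotypes, though WT IRI 24 was below the highest CKO sham library. The limma changes were 1.11 (adjusted p = 0.0384) in CKO and 1.40 (adjusted p = 0.00499) in WT kidneys, and of the 12 omissions of 1 library the CKO call was kept only without WT IRI 24, WT IRI 49 or CKO sham 1 (adjusted p up to 0.176). Quantile normalization or 1 spread shared by the groups also removed that CKO call. Col6a2 measured 9.13, 9.28 and 11 FPKM in CKO IRI, against 4.22, 2.25 and 3.46 FPKM in CKO sham. It measured 15.1, 5.59 and 20.5 FPKM in WT IRI, against 3.28, 3.32 and 3.28 FPKM in WT sham. Col6a2 rose by 1.35 (limma adjusted p = 0.0184) in CKO and by 1.62 (adjusted p = 0.00263) in WT kidneys, and the CKO call was lost without CKO IRI 7, CKO sham 2 or CKO sham 3 (adjusted p up to 0.134). Col6a3 measured 3.90, 3.73 and 6.62 FPKM in CKO IRI, against 3.98, 1.70 and 2.45 FPKM in CKO sham, which overlapped. It measured 6.29, 2.20 and 8.54 FPKM in WT IRI, against 1.59, 1.75 and 1.89 FPKM in WT sham, a limma rise of 1.15 (adjusted p = 0.0235). This rise was lost without WT IRI 13 or WT IRI 49, and with quantile normalization, array weights or only the groups compared (adjusted p up to 0.124). Col12a1 and Col14a1, which encode collagens on the surface of fibrils, passed in neither genotype, and their changes lay between 0.01 and 0.40.

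Fibrillar genes took a larger share of the collagen signal in every injured library. The 5 fibrillar genes made up 33.5%, 35.2% and 38.6% of the summed FPKM of the 14 collagens in CKO IRI, against 20.5%, 18.2% and 20.2% in CKO sham. In WT IRI the share was 49.1%, 24.9% and 46.3%, against 16.0%, 16.9% and 16.0% in WT sham. All 6 injured libraries were above all 6 sham libraries, with WT IRI 24 the lowest of the injured ones. The summed level of the 14 genes was 369.9, 313.0 and 500.2 FPKM in CKO IRI, against 191.5, 165.2 and 185.7 FPKM in CKO sham. It was 670.4, 353.4 and 617.2 FPKM in WT IRI, against 182.5, 181.2 and 201.2 FPKM in WT sham.

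**Figure D3:**
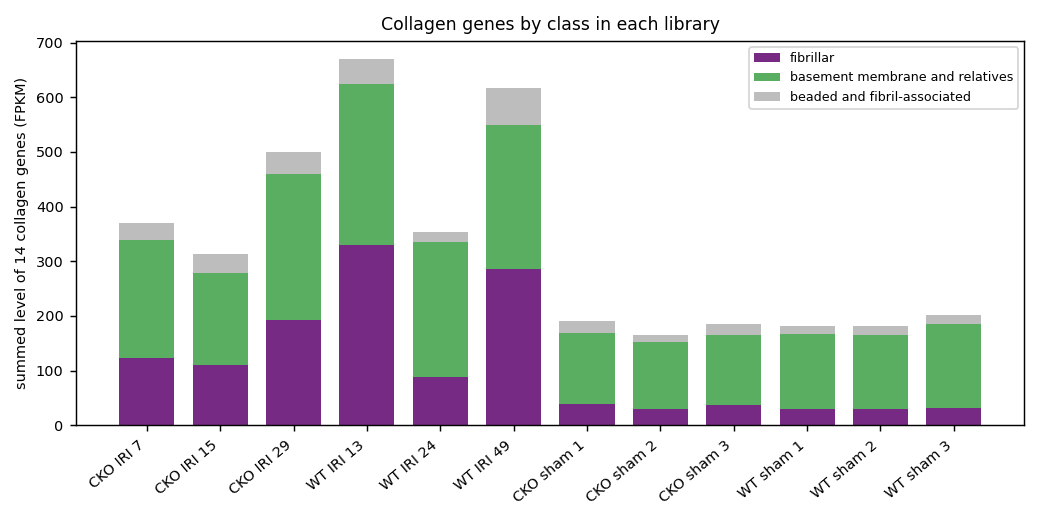
Summed level of the 14 collagen members in each library (y axis, FPKM; x axis, libraries), stacked by class. Fibrillar genes took 24.9% to 49.1% of each injured bar and 16.0% to 20.5% of each sham bar, and WT IRI 24, at 353.4 FPKM, is nearer to the CKO IRI bars than to the other WT IRI bars.

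Among the other basement membrane genes none of 7 passed in CKO kidneys and 4 rose in WT kidneys (Lama5, Lamb1, Lamb2 and Nid1). Nid1 encodes nidogen 1, which ties laminin to type IV collagen. It measured 6.57, 8.70 and 11.6 FPKM in CKO IRI, against 5.89, 4.71 and 6.23 FPKM in CKO sham. It measured 11.7, 9.49 and 12.4 FPKM in WT IRI, against 3.81, 4.59 and 4.34 FPKM in WT sham. The groups did not overlap in either genotype, and the limma changes were 0.57 (adjusted p = 0.0866) in CKO and 1.22 (adjusted p = 0.00126) in WT kidneys.

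Lama5, the alpha chain of the laminin of mature tubular and glomerular basement membrane, measured 24.1, 15 and 19.3 FPKM in CKO IRI, against 16.5, 10.7 and 10.8 FPKM in CKO sham, which overlapped and passed only without CKO sham 1 (limma adjusted p = 0.0218) or with 1 array weight per library (0.00204). It measured 34.7, 33.6 and 22.3 FPKM in WT IRI, against 12.3, 12.3 and 14.8 FPKM in WT sham, a limma rise of 1.12 (adjusted p = 0.00499). That call was lost without WT IRI 24 (adjusted p = 0.0652), which was among the higher libraries here. Lamb2, a laminin beta chain, rose by 0.72 in WT kidneys (limma adjusted p = 0.0106), to 37.8, 22.6 and 20.7 FPKM in WT IRI, against 15, 15.2 and 16.4 FPKM in WT sham. Lamb1 passed in CKO kidneys only with 1 array weight per library (limma adjusted p = 0.0454). In WT kidneys it rose by 0.47 (limma adjusted p = 0.0294), a call lost without WT IRI 13 or WT IRI 49 and after quantile or trimmed-mean scaling (adjusted p up to 0.158). Lamc1, the shared gamma chain, measured 10.4, 9.06 and 11.8 FPKM in CKO IRI, against 13.7, 7.42 and 6.03 FPKM in CKO sham. It measured 18.3, 21.4 and 30.4 FPKM in WT IRI, against 16.7, 6.97 and 8.09 FPKM in WT sham. The WT groups did not overlap, and the change of 1.13 did not pass (limma adjusted p = 0.101) except without WT sham 1 (0.00653), with 1 shared spread (0.0230), with 1 array weight per library (0.0477) or with only the groups compared (0.0457). The Lamc1 values rest on 2 transcripts of unequal length, of which the shorter was listed at 0 in CKO IRI 29, CKO sham 2, CKO sham 3 and WT sham 2 and at 23.9 FPKM in WT IRI 49. Nid2, the gene of nidogen 2, overlapped in both genotypes. Hspg2, the gene of perlecan, was lower in every injured library than in the sham libraries of its genotype, with limma changes of -0.29 (adjusted p = 0.267) in CKO and -0.34 (adjusted p = 0.119) in WT kidneys. It passed as lower in WT kidneys only after quantile normalization (-0.50, adjusted p = 0.0310), and in CKO kidneys only with 1 array weight per library (-0.39, adjusted p = 0.0245).

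Of the 9 tested genes of elastic fibres and cross-linking, 2 rose in CKO kidneys and 5 in WT kidneys. Lox encodes lysyl oxidase, which starts the covalent cross-links of collagen and elastin. It measured 3.16, 6.20 and 3.88 FPKM in CKO IRI, against 0.839, 0.485 and 0.585 FPKM in CKO sham. It measured 3.41, 1.31 and 3.16 FPKM in WT IRI, against 0.457, 0.441 and 0.498 FPKM in WT sham. The limma changes were 1.69 (adjusted p = 0.00111) in CKO and 1.25 (adjusted p = 0.00257) in WT kidneys. Lox was 1 of 8 tested members whose fitted change, taken with its sign, was higher in CKO than in WT kidneys. Among the 8, Col5a2, Hspg2, Fbln5 and Fn1 had negative changes in both genotypes that were smaller in size in CKO kidneys. For Lox the difference of 0.44 (log2) between the 2 changes did not pass (limma adjusted p = 0.479). Loxl2, a related oxidase, rose by 0.92 (limma adjusted p = 0.0200) in CKO and 0.85 (adjusted p = 0.0106) in WT kidneys. Its CKO call was lost without CKO IRI 7, CKO IRI 29, CKO sham 2 or CKO sham 3 and its WT call without WT IRI 49 (adjusted p up to 0.0890 and 0.0598).

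Mfap2, a small glycoprotein of fibrillin microfibrils, measured 3.45, 4.49 and 3.68 FPKM in CKO IRI, against 2.88, 1.18 and 1.73 FPKM in CKO sham. It measured 5.89, 1.93 and 10.04 FPKM in WT IRI, against 0.945, 0.843 and 1.36 FPKM in WT sham. It rose by 1.57 in WT kidneys (limma adjusted p = 0.00741), and the change of 0.77 in CKO kidneys did not pass (adjusted p = 0.204) except with 1 array weight per library (0.0399). Fbln1, a fibulin of elastic fibres and basement membranes, measured 6.02, 9.25 and 2.99 FPKM in CKO IRI, against 3.18, 2.37 and 3.26 FPKM in CKO sham, which overlapped. It measured 5.73, 3.17 and 12.3 FPKM in WT IRI, against 1.76, 2.65 and 2.53 FPKM in WT sham. Its WT rise of 1.13 (limma adjusted p = 0.0366) was lost in 5 of the 12 omissions of 1 library (without CKO sham 1, WT sham 1 or any WT IRI library). Quantile normalization, trimmed-mean scaling, array weights or only the groups compared also removed it. The WT rise of Fbn1, which encodes fibrillin 1, of 0.89 (limma adjusted p = 0.0304) was lost without WT IRI 13, WT IRI 49 or WT sham 1. Quantile normalization, array weights or only the groups compared removed the Fbn1 call too. Fbln5, a fibulin needed for elastic fibre assembly, ranged from 1.66 to 26.8 FPKM with no order by group. Elastin itself (Eln) and Fbln2, Fbln5 and Loxl1 passed in neither genotype, save Loxl1 in WT kidneys without CKO sham 2 or CKO sham 3 (limma adjusted p = 0.0381 and 0.0442). Fbn1 passed in CKO kidneys without WT IRI 49 or CKO sham 1 (limma adjusted p = 0.0459 in each), and with 1 array weight per library Fbn1 (0.0361) and Fbln1 (0.0332) passed there.

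Of the small leucine-rich proteoglycans, which coat collagen fibrils, 1 of 3 passed, and only in WT kidneys. Bgn, the gene of biglycan, measured 94.3, 137 and 119 FPKM in CKO IRI, against 76.3, 47.5 and 78.9 FPKM in CKO sham. It measured 113, 79.2 and 199 FPKM in WT IRI, against 47.7, 59.9 and 45.7 FPKM in WT sham. Both pairs of groups were separate, and the limma changes were 0.80 (adjusted p = 0.125) in CKO and 1.24 (adjusted p = 0.0108) in WT kidneys, the WT call being lost without WT IRI 49 (adjusted p = 0.0608). Dcn, the gene of decorin and a general marker of fibroblasts, overlapped in both genotypes. It measured 17.7, 33.8 and 8.05 FPKM in CKO IRI, against 26.7, 13 and 18.6 FPKM in CKO sham. It measured 18.4, 11.6 and 37.1 FPKM in WT IRI, against 11.1, 15.3 and 10.4 FPKM in WT sham. Lum, the gene of lumican, its neighbour on chromosome 10 at 47.0 kb, ranged from 0.693 to 3.17 FPKM over the 12 libraries and overlapped in both genotypes.

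Of 5 adhesive and matricellular genes, 2 rose in CKO and 3 in WT kidneys. Postn, the gene of periostin, measured 1.69, 2.22 and 2.02 FPKM in CKO IRI, against 0.123, 0.212 and 0.145 FPKM in CKO sham. It measured 3.32, 0.782 and 5.29 FPKM in WT IRI, against 0.121, 0.178 and 0.153 FPKM in WT sham. The groups were separate in both genotypes, and the limma changes were 1.36 (adjusted p = 0.0130) and 1.66 (adjusted p = 0.00161). The CKO call was lost without CKO IRI 7, CKO sham 2 or CKO sham 3 (adjusted p up to 0.0991). Tnc, the gene of tenascin C, measured 2.44, 3.04 and 5.13 FPKM in CKO IRI, against 1.68, 1.03 and 1.23 FPKM in CKO sham. It measured 6.47, 2.34 and 3.79 FPKM in WT IRI, against 1.05, 0.943 and 1.22 FPKM in WT sham. It rose by 0.94 in CKO kidneys (limma adjusted p = 0.0441), a call that omission of 1 library left standing only for WT IRI 13, WT IRI 24 or CKO sham 1 (adjusted p up to 0.165) and that was lost with quantile or trimmed-mean scaling, and by 1.25 in WT kidneys (adjusted p = 0.00452).

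Sparc, the gene of a collagen-binding matricellular protein, had the highest mean FPKM of the members in CKO IRI. It measured 114, 119 and 194 FPKM in CKO IRI, against 93.9, 73.2 and 79.4 FPKM in CKO sham. It measured 208, 112 and 209 FPKM in WT IRI, against 62.0, 59.4 and 66.5 FPKM in WT sham. The groups were separate in both genotypes, and the limma changes were 0.75 (adjusted p = 0.0607) in CKO and 1.42 (adjusted p = 0.00133) in WT kidneys, the CKO change passing without WT IRI 24 (adjusted p = 0.0375), without CKO sham 1 (0.0254), after quantile normalization (0.0487) and with 1 array weight per library (0.0167). Fn1, the gene of fibronectin, passed in neither genotype. Of its 17 annotated transcripts only 6 could be summed, and the leading 1 of these held 29.5% of their mean value. These 6 transcripts traded places between libraries, so the sum is a partial measure of the gene. They summed to 6.06, 2.98 and 2.00 FPKM in CKO IRI, against 5, 5.60 and 3.85 FPKM in CKO sham. They summed to 1.57, 2.36 and 4.99 FPKM in WT IRI, against 3.11, 4.15 and 5.78 FPKM in WT sham. The groups overlapped in both genotypes. Thbs1, the gene of thrombospondin 1, measured 26.4, 19 and 16.1 FPKM in CKO IRI, against 12.4, 11.4 and 11.7 FPKM in CKO sham. These were separate, but the change of 0.72 did not pass (limma adjusted p = 0.0754) except without WT IRI 24 (0.0497) or with 1 array weight per library (0.00300), and the WT groups overlapped.

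The sequences just before the start of 3 genes that rose in both genotypes are shown because their 250 bases hold a searched motif and touch no annotated exon. They come from RefSeq (GRCm38.p6) and are written 5′ to 3′ on the gene's own strand, as chr1:45311288-45311537 for Col3a1 (plus strand), chr3:54360857-54361106 for Postn (plus strand) and chr4:64047016-64047265 for Tnc (minus strand). Capitals mark TATAAA and CAGACA or, for the other strand, TGTCTG, the letters of a SMAD-binding element.
Col3a1: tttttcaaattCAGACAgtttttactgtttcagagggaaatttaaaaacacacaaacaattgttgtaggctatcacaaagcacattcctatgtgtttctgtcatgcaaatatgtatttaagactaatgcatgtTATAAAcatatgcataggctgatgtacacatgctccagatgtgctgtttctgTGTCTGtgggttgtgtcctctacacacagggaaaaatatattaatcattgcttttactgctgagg
Postn: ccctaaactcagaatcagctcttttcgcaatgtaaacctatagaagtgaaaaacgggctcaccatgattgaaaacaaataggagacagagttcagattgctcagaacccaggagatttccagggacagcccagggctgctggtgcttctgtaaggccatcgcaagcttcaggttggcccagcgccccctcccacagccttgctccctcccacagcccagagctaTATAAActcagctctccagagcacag
Tnc: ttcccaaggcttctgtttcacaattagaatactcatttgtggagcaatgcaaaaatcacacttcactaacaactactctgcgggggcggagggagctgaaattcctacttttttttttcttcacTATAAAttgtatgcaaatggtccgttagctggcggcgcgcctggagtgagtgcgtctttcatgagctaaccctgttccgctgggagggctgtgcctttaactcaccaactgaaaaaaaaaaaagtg

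In Postn the TATAAA lies 26 bases before the RefSeq start, while in Col3a1 and this Tnc window it lies 117 and 126 bases before it. RefSeq windows were at hand for 27 of the 44 members, 34 windows in all, and some are overlapping windows of 1 gene. CAGACA or its reverse complement was present in 12 of the 34 windows (35.3%), against 17.1% of all 32851 windows. TATAAA was present on either strand in 5 of 34 (14.7%), against 12.4% of all. TGANTCA, the letters of an AP-1 site, was present in 1 of 34 (2.94%), against 6.75% of all, and the CArG box of serum response factor in none, against 1.47%. These matches are letters in a window and say nothing of binding.

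Of 5 mesenchymal cell genes, 1 rose in CKO and 3 in WT kidneys. Acta2, the smooth muscle actin of arterioles and myofibroblasts, measured 37.2, 45.1 and 90.4 FPKM in CKO IRI, against 32.4, 22.9 and 30.8 FPKM in CKO sham. It measured 73.1, 49.8 and 81.8 FPKM in WT IRI, against 23.3, 23.1 and 20.5 FPKM in WT sham. Injured and sham libraries were separate in both genotypes, with 1 CKO IRI library at the level of WT IRI, and the limma changes were 0.89 (adjusted p = 0.0684) in CKO and 1.54 (adjusted p = 0.00238) in WT kidneys. Tagln, the gene of the actin-binding protein transgelin, measured 31.2, 49 and 80.2 FPKM in CKO IRI, against 30.9, 19.3 and 22 FPKM in CKO sham. It measured 94.2, 52.1 and 63.4 FPKM in WT IRI, against 20.8, 15.8 and 16.3 FPKM in WT sham. It rose by 1.89 in WT kidneys (limma adjusted p = 0.00176), and its change of 1.04 in CKO kidneys did not pass (adjusted p = 0.0653). Without CKO sham 1 the CKO changes of Acta2 and Tagln passed (limma adjusted p = 0.0445 and 0.0205), and Tagln passed also with 1 array weight per library (0.0351). The receptor genes Pdgfra, carried by fibroblasts, and Pdgfrb, carried by pericytes and fibroblasts, had changes of 0.62 to 1.04 that did not pass in either genotype (limma adjusted p from 0.0536 to 0.276). In WT kidneys Pdgfra passed without CKO IRI 15 (0.0306), CKO sham 2 (0.0482) or WT sham 2 (0.0462), and Pdgfrb without WT IRI 24 (0.0285).

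Vim, the gene of the intermediate filament vimentin of mesenchymal cells, leukocytes and injured tubule cells, had another order of libraries than most collagens. It measured 53.9, 49 and 75.4 FPKM in CKO IRI, against 29.7, 19.1 and 22.6 FPKM in CKO sham. It measured 270, 168 and 85.1 FPKM in WT IRI, against 15.3, 16.1 and 14 FPKM in WT sham. WT IRI 24, the lowest injured library for most collagens, was second highest for Vim, and WT IRI 49 was only just above the highest CKO IRI library. The limma changes were 1.28 (adjusted p = 0.0216) in CKO and 3.29 (adjusted p = 4.4e-05) in WT kidneys, and the CKO call was lost without CKO IRI 7, CKO IRI 29, CKO sham 2 or CKO sham 3 (adjusted p up to 0.135). Krt8 and Krt18, keratins of epithelial cells that are used as markers of injured tubule, had the same order in WT IRI. Krt18 measured 87.3, 55.4 and 103 FPKM in CKO IRI and 271, 225 and 109 FPKM in WT IRI, and its part in the Vim values was not tested.

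No member passed in a comparison of the genotypes. In CKO sham against WT sham no member passed, where limma called 0.136% of all genes. At an unadjusted p under 0.05, 5 of the 43 members (11.6%) and 17.7% of all genes lay apart in sham. Vim, the largest of these by fold, measured 29.7, 19.1 and 22.6 FPKM in CKO sham, against 15.3, 16.1 and 14 FPKM in WT sham (limma adjusted p = 0.189). Col1a2, Col3a1, Col12a1, Nid1, Sparc and Vim were higher in every CKO sham library than in every WT sham library, which held for 15% of all genes, and Col5a2, Col4a2, Col18a1 and Hspg2 were lower, which held for 13.4%. CKO sham 1 was the highest of the 6 sham libraries for 22 of the 43 members (51.2%), against 34.5% of all genes.

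In CKO IRI against WT IRI no member passed either, where limma called 2 genes (0.016% of those tested), and at an unadjusted p under 0.05 it held 2 members (4.65%), Lamb2 and Vim, against 12.6% of all genes. No member was higher in every library labelled CKO IRI, as 7.11% of all genes were. The mean of 33 of the 43 members (log2) was lower in CKO IRI, as was that of 54.8% of all genes, but the ranges of the groups overlapped for all except Lamb2, Lamc1 and Vim, which were lower in every library labelled CKO IRI, as were 11.5% of all genes. For Lamc1 that order came from the transcript of 1447 bases. This transcript measured 0.912, 1.07 and 0 FPKM in CKO IRI, against 15.1, 18.9 and 23.9 FPKM in WT IRI. The transcript of 7622 bases ran the other way without overlap, at 9.52, 7.99 and 11.8 FPKM in CKO IRI and 3.21, 2.45 and 6.44 FPKM in WT IRI. Vim differed by -1.41 (SE 0.36, limma adjusted p = 0.346). The test of whether injury changed a member by unlike amounts in the 2 genotypes (the CKO change minus the WT change) called none, where it called 0.016% of all genes. Taken with its sign, the WT change was the higher for 35 of the 43 members and for 55.2% of all genes. At an unadjusted p under 0.05 were 3 members (6.98%, Lamb2, Nid1 and Vim), against 17.7% of all genes. For Vim the difference of changes was -2.01 (SE 0.41, limma adjusted p = 0.188). Vim passed in both tests without WT IRI 49 (-1.85, adjusted p = 0.0460, and -2.45, adjusted p = 0.0323) and with 1 array weight per library (-1.50, adjusted p = 0.0306, and -1.96, adjusted p = 0.0273), and it did not pass in the other settings. A p that misses the threshold does not show that the genotypes were alike. For Col1a1 the difference between injured groups was -0.68 with an SE of 0.49.

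**Figure D4:**
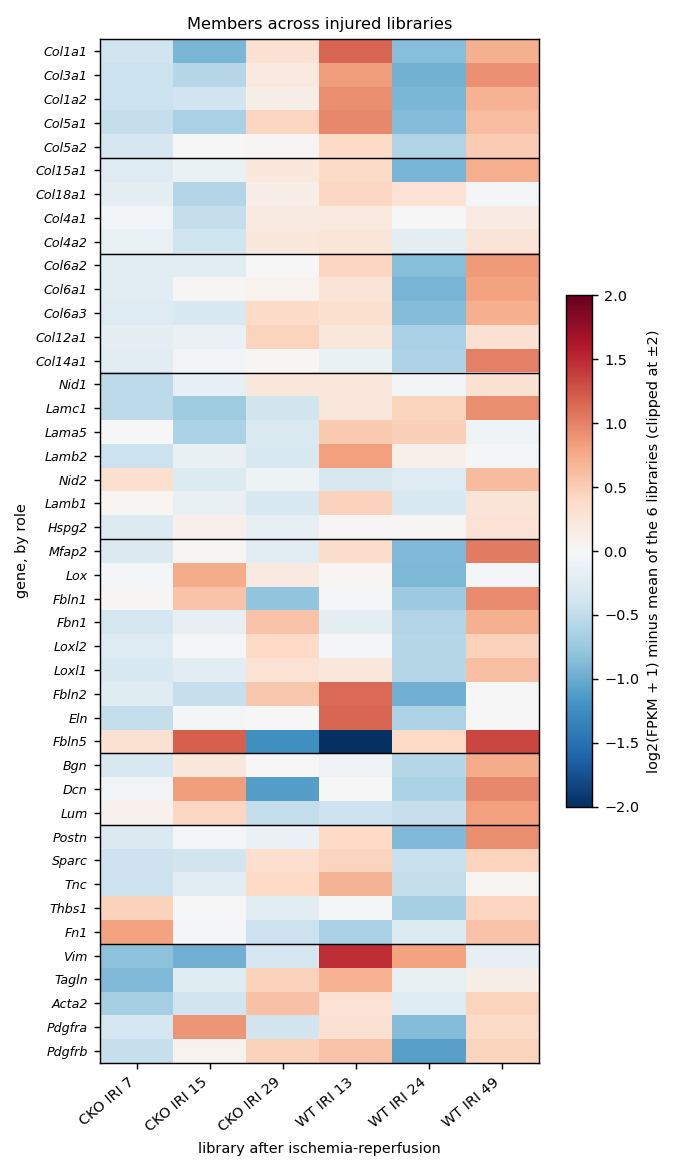
Each tested member (rows, by role) in the 6 injured libraries (columns), as log2(FPKM + 1) minus the mean of those 6, with values beyond 2 clipped. WT IRI 24 is the lowest library for 24 of the 43 rows and WT IRI 49 the highest for 23, whereas Vim and Lama5 are high in WT IRI 24.

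The injured libraries of 1 group differed from each other for most members. WT IRI 24 was the lowest of the 6 injured libraries for 24 of the 43 members (55.8%), against 12.7% of all genes, and the highest for none. WT IRI 49 was the highest for 23 (53.5%), against 14% of all genes, and WT IRI 13 for 14 (32.6%), against 27.3%. CKO IRI 15 was the lowest for 7 (16.3%), against 24.1% of all genes, among them Col1a1, Col4a1, Col18a1, Lama5 and Vim. Within CKO IRI, library 29 was the highest for 27 members (62.8%), against 45.5% of all genes, among them Col1a1, Col3a1, Acta2, Pdgfrb and Sparc. Library 15 was the highest of the 3 for 11 (25.6%), against 29.9% of all genes, among them Pdgfra, Dcn, Lum, Fbln1 and Lox. Pdgfra measured 3.33, 9.14 and 3.27 FPKM in CKO IRI 7, 15 and 29. The mitochondrial share of summed FPKM was 9.6%, 10.2% and 8.7% in CKO IRI 7, 15 and 29 and 3.9%, 10% and 7.4% in WT IRI 13, 24 and 49, against 11% to 12.3% in CKO sham and 9.5% to 10.2% in WT sham, so that WT IRI 24 was the highest in WT IRI, and its part in the member values was not tested.

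Markers of matrix-making cells outside the members are set against the background of 6.6% of all genes that rose in CKO and 23.5% in WT kidneys. Of 10 tested fibroblast markers, 1 fell and none rose in CKO kidneys, and 2 rose and 2 fell in WT kidneys, with median changes of -0.05 in CKO and 0.25 in WT kidneys. In WT kidneys S100a4, a calcium-binding protein of fibroblasts and leukocytes, and the stromal transcription factor Tcf21 rose by 2.15 and 1.14, while Sfrp1, a secreted Wnt inhibitor, and Meox1 fell by 1.74 and 0.86 (limma). Their summed level over 13 genes lay between 82.11 and 127.5 FPKM in CKO IRI and between 82.07 and 162.1 FPKM in WT IRI, with WT IRI 24 lowest, against 97.46 to 111.4 FPKM in CKO sham and 103.9 to 113.4 FPKM in WT sham. Of 13 pericyte and smooth muscle markers, none passed in CKO kidneys and 5 rose in WT kidneys, among them Tpm2 (2.13) and the muscle filament gene Des (1.27). Summed over 14 genes they were at 119.5 FPKM in WT IRI 24 and 238.4 and 243.2 FPKM in WT IRI 13 and 49, against 151.9 to 191.3 FPKM in WT sham. In CKO IRI the sum was 132.1 to 269.2 FPKM, lowest in CKO IRI 7, against 199.6 to 212.9 FPKM in CKO sham. Fap, also on the fibroblast list, could not be analysed here. The part of these markers in the member values was not tested.

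Markers of other cell types passed at the same time. Of 12 endothelial markers, 6 fell in CKO and 4 in WT kidneys and none rose, and their sums were 85.17 to 220.4 FPKM in CKO IRI and 102.7 to 202.9 FPKM in WT IRI, against 257.9 to 376.9 FPKM in CKO sham and 234.8 to 252.0 FPKM in WT sham. Of 11 macrophage and leukocyte markers none passed in CKO and 2 rose in WT kidneys. Their sums were 143.5 to 221.8 FPKM in CKO IRI and 117.8 to 286.5 FPKM in WT IRI, lowest in WT IRI 24, against 125.0 to 182.3 FPKM in CKO sham and 100.5 to 115.9 FPKM in WT sham. Of 10 proximal tubule markers 2 fell in CKO and 10 in WT kidneys. Of 9 injured tubule markers 8 rose in CKO and 9 in WT kidneys. Their sum was 3045 FPKM in WT IRI 13, 3514 FPKM in WT IRI 24 and 1712 FPKM in WT IRI 49. For WT IRI 24 and WT IRI 49 this was the reverse of their order for most members. WT IRI 13, however, was the highest injured library for 14 members. The sum was 1636, 898.7 and 2744 FPKM in CKO IRI 7, 15 and 29. Within CKO IRI, library 29 was also the highest for 27 of the 43 members, while library 7, not 15, was the lowest for 23. Podocyte markers fell in 1 of 7 in CKO and 2 of 7 in WT kidneys. Of 7 loop and distal tubule markers none passed in CKO kidneys, and 1 rose and 3 fell in WT kidneys. All 6 cell cycle markers rose in both genotypes. The background of falls was 2.02% of all genes in CKO and 11.8% in WT kidneys. The part of these shifts in the matrix values was not tested.

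The lists that follow are read against 6.6% of all genes rising and 2.02% falling in CKO kidneys, and 23.5% rising and 11.8% falling in WT kidneys. Of 26 tested enzymes and chaperones of collagen synthesis and secretion, none rose and 1 fell in CKO kidneys, and 7 rose and 3 fell in WT kidneys, with medians of 0.10 and 0.09 against 0.08 and 0.12 over all genes. In WT kidneys Adamts2, which trims the procollagen end, the chaperone subunit Crtap and the oxidase Loxl3 rose by 1.31, 0.70 and 1.13, and the prolyl hydroxylase P3h2 fell by 1.04 (limma). P3h2 also fell by 0.73 in CKO kidneys (limma adjusted p = 0.0395). Serpinh1, the collagen chaperone HSP47 and a gene outside the naming rule that was looked at after its values were seen, measured 30.9, 31.6 and 52.7 FPKM in CKO IRI, against 36.0, 23.5 and 41.3 FPKM in CKO sham. It measured 59.5, 108 and 49.2 FPKM in WT IRI, against 23.9, 24.1 and 33.2 FPKM in WT sham, and was highest in WT IRI 24, where Col1a1 and Col3a1 were low.

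Of 25 tested TGF-beta pathway genes, 1 rose in CKO kidneys, and 7 rose and 2 fell in WT kidneys, with median changes of 0.15 in CKO and 0.25 in WT kidneys, and the counts lay near those background shares. The genes named next had the smallest p in WT kidneys. Tgfbi, a matrix protein named for its induction by TGF-beta, rose by 1.25 (limma adjusted p = 0.0118) in CKO and by 1.92 (adjusted p = 0.000465) in WT kidneys. The ligand Tgfb1 measured 13.1, 13.1 and 20.2 FPKM in CKO IRI, against 11.4, 8.96 and 10.2 FPKM in CKO sham. It measured 28.4, 20.8 and 23.6 FPKM in WT IRI, against 7.69, 9.22 and 7.61 FPKM in WT sham. Its groups were separate in both genotypes, with limma changes of 0.54 (adjusted p = 0.0989) in CKO and 1.45 (adjusted p = 0.000466) in WT kidneys. Ccn2, the connective tissue growth factor gene, rose by 2.02 in WT kidneys (limma adjusted p = 0.00307), with 152, 79.9 and 35.6 FPKM in WT IRI, and the repressor Tgif1 by 1.90 (adjusted p = 0.000471).

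Receptors for matrix rose in 4 of 21 in CKO kidneys, and 9 of 21 rose and 2 fell in WT kidneys, with medians of 0.26 in CKO and 0.17 in WT kidneys. They included the heparan sulfate proteoglycan Sdc1 (1.08 in CKO and 1.68 in WT kidneys) and the epithelial integrin subunits Itga3 (1.03 and 1.71) and Itgb4 (0.92 and 1.43). The hyaluronan receptor Cd44 rose by 2.28 in WT kidneys (limma adjusted p = 0.000641), and its change of 0.99 in CKO kidneys did not pass (adjusted p = 0.0729). Of 36 other matrix genes 5 rose in CKO kidneys, and 12 rose and 1 fell in WT kidneys, with medians of 0.09 in CKO and 0.30 in WT kidneys. Spp1, the gene of osteopontin, which tubule cells secrete, rose by 1.73 in CKO and 2.03 in WT kidneys (limma), to 3792, 2126 and 5423 FPKM in CKO IRI and 4259, 4610 and 3442 FPKM in WT IRI. Lamb3, a laminin chain of epithelia (1.04 in CKO and 2.02 in WT kidneys), and the fibulin-like gene Efemp1 (0.57 in CKO and 1.05 in WT kidneys) rose in both genotypes (limma), and WT IRI 24 was not low for Spp1 or Efemp1.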

How the data were processed

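Total RNA libraries of renal cortex, 3 in each of 4 groups, were marked for strand with dUTP, per the labels' protocols. The authors deposited 1 table of 25790 transcripts by 12 libraries, read here as FPKM. Its header names no unit, so TPM, which would differ by 1 factor per library, is also possible. The tools named in the submitters' processing notes include HISAT2 2.1.0, cutadapt and StringTie, and the build named there is human although the identifiers are mouse. Each deposited row has a mean of 0.5 FPKM or more in at least 1 group. Depth and strand setting are not given in the sources used here.

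Transcripts were matched to GENCODE M21 (25740 matched; the 50 others held at most 0.1% of a library) and summed per gene. Genes with 1 FPKM or more in 3 or more of the 12 libraries (12469) were fitted with limma 3.58.1 in R 4.3.3 on log2(FPKM + 1), with 1 mean and 1 variance factor per group and a mean-variance trend. Tests were two-sided, adjusted by Benjamini-Hochberg over all genes in each of 5 contrasts, and called at 0.05. The fit was tested on simulated data with normal noise and 1 spread factor per group, as the fit itself assumes. Such data hold no single outlying library and no trading of transcripts, so that test could not show errors from these. Single-gene permutation tests were exact. Overlapping neighbours and gene copies may share reads.

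Members and gene lists were chosen with earlier results of these data known. In each role the 3 members with the largest change in WT kidneys are given by library, with any member called between genotypes or called as fallen, and up to 4 genes with the smallest p in WT kidneys of each other list, of which 1 is not reported here. Other members given by library were chosen after their values were seen. Motifs were searched in the 250 bases before RefSeq starts.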

Additional observations from a re-analysis of the deposited data

How the results depend on the processing

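Read depth is unknown, so counting error could not be stated, and 3 libraries a group limit what any contrast can call. Over the 24 other settings, 1860 of 2038 values for single genes kept their direction and their side of the threshold. The count of members that rose in CKO kidneys was 22, with 2 lower, when each library had its own array weight, and 4 to 19 when 1 library was left out. In WT kidneys it was 19 to 29 with 1 library left out. Fitting only the groups compared removed the CKO calls of Col4a1, Loxl2 and Tnc and, among others, the WT calls of Loxl2, Lamb1 and Lamb2. Members lower in WT kidneys numbered 2 after quantile normalization, 1 with trimmed-mean scaling, 1 with array weights and 0 to 1 with 1 library left out. Vim was the 1 member lower with array weights in CKO IRI against WT IRI and in the interaction (0 to 1 with 1 library left out in each).

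Over all genes, calls in CKO IRI against CKO sham numbered 1075 and became 667 with a mean of 5 FPKM or more, 3551 with array weights, 476 with only the groups compared, and 252 to 1672 with 1 library left out. In WT IRI against WT sham the range with 1 library left out was 1840 to 4344. In CKO sham against WT sham 17 became 33 without a filter, 0 with 1 shared spread, 124 with array weights, 11 with only the groups compared, and 0 to 88 with 1 library left out. In CKO IRI against WT IRI 2 became 1 with a mean of 5 FPKM or more, 5 with 1 shared spread, 723 with array weights, 0 with only the groups compared, and 2 to 49 with 1 library left out. In the interaction 2 became 1 with a mean of 5 FPKM or more, 841 with array weights, and 1 to 39 with 1 library left out. The causes were not tested. A replicate block could be fitted for the sham libraries only, and with it 0 genes were called and no member passed. Same-numbered sham libraries did not deviate together (correlations of -0.03 to 0), and the injured groups share no numbers.

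No called value changed sign. Among changes that did not pass, those that changed sign in CKO kidneys after quantile normalization were Col12a1 (-0.009), Col14a1 (-0.128), Lamb2 (-0.038), Nid2 (-0.080) and Lum (-0.013). With trimmed-mean scaling they were Col14a1 (-0.058), Lamb2 (-0.013) and Nid2 (-0.023), and with array weights Col14a1 (-0.043), Fbln5 (0.162), Dcn (0.142) and Fn1 (0.073). With transcripts weighted by length, chosen after seeing the data, Col14a1 was at -0.003. In WT kidneys Eln (-0.038) and Fbln2 (-0.125) changed sign with array weights. With 1 library left out, changes in CKO kidneys ran from -0.077 to 0.325 for Col12a1, -0.173 to 0.154 for Col14a1, -0.012 to 0.154 for Lamb2, -0.230 to 0.337 for Nid2, -0.162 to 0.090 for Eln, -0.108 to 0.387 for Fbln2, -1.208 to 0.302 for Fbln5, -0.104 to 0.344 for Lum and -0.595 to 0.377 for Dcn. In WT kidneys they ran from -0.125 to 0.689 for Col14a1, -0.115 to 0.778 for Eln, -0.147 to 0.904 for Fbln2, -1.573 to 0.095 for Fbln5 and -0.068 to 0.572 for Lum. The Gpx3 difference in CKO IRI against WT IRI ran from -0.001 to 0.863.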

Other observations

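The transcripts behind several members traded places between libraries, among them Sparc, Lamc1, Fbln5, Lamb1, Pdgfra, Col14a1, Col15a1, Tnc and Fn1. For Fn1, the transcript Fn1-201 held 2.35 of the 2.36 FPKM in WT IRI 24 and was listed at 0 in WT sham 2 and WT sham 3. For Lamb1, the transcript Lamb1-205 measured 30.2 FPKM in CKO IRI 7, against 0.045 and 0.047 FPKM in CKO IRI 15 and 29. For Pdgfra, the transcript Pdgfra-201 was listed at 0 in WT IRI 24, CKO sham 2 and WT sham 3, where only Pdgfra-202 had a value. For Sparc, the transcript Sparc-202 measured 106 FPKM in CKO IRI 7, 180 in WT IRI 13 and 185 in WT IRI 49 and at most 4.72 FPKM in the other 9 libraries, in which Sparc-201 was the leading transcript. The summed Sparc value is less exposed to this than either transcript, since the annotated lengths are 2300 and 2115 bases. For Lamc1, the transcript of 1447 bases measured 12.6 FPKM in CKO sham 1 and 12.03 in WT sham 1 and was at or below 0.336 FPKM in the other 4 sham libraries, and the transcript of 7622 bases ran the other way. For Fbln5, the transcript Fbln5-203 was listed at 0 in CKO IRI 29, WT IRI 13 and CKO sham 2 and measured 7.35 to 20.9 FPKM in the other 9 libraries.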
